A study of Mus musculus with 19 samples.

Results

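The genes of the major histocompatibility complex (MHC) and of antigen presentation were followed through the livers of mice with 0, 1 or 2 mutant alleles of Pkd1. Members were the rows of the count table whose symbol starts with H2-, the prefix of the mouse MHC, together with B2m, Cd74, Ciita, Nlrc5, Tap1, Tap2, Tapbp, Psmb8 and Psmb9. This gave 49 of the 35976 rows: 2 classical class I heavy chains, 26 non-classical class I rows, 11 class II chains and chaperones, 6 genes of class I peptide supply and assembly, 2 transactivators and 2 other H2- rows. Livers came from 7 WT, 6 Het and 6 Homo mice, 1 library each, which the design text calls littermates. AAV-Cre, a virus-based vector for Cre recombinase, was given in all 3 genotypes, WT included. Every mouse was also kept for 3 months on Western diet with CCl4, a liver toxin, as a model of steatohepatitis. Which cells the vector reaches, which stretch of Pkd1 is deleted, and the sex, age and strain of the mice are not stated.

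Class I molecules stand on nearly all cells and show peptides cut from the cell's own proteins to CD8 T cells. The immunoproteasome cuts these peptides, the TAP transporter carries them into the endoplasmic reticulum, and tapasin helps to load them onto a heavy chain held by the light chain beta-2-microglobulin. Class II molecules stand on dendritic cells, macrophages and B cells and show peptides from engulfed material to CD4 T cells. Non-classical class I genes resemble the heavy chains, are mostly less variable, and serve natural killer cells and unconventional T cells, among other roles. In the liver, class II comes mainly from Kupffer cells, dendritic cells and other immune cells.

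Library totals ran from 25847075 to 42142903 counts, and the members took 0.447% to 0.571% of each library, of which H2-K1 alone took 0.288% to 0.377%. Levels are in CPM, which divide each count by its library's TMM-adjusted size. The 6 hepatocyte markers summed to 15500 to 21250 CPM in every liver. A gene was called when its Benjamini-Hochberg adjusted p, over all 16463 tested genes, was under 0.05 in edgeR's quasi-likelihood test, which gave every adjusted p below unless another tool is named. The value after ± is a standard error for a log2 fold change and an SD for a CPM. The labels do not name litters or batches, so p-values measure only the spread between these libraries. Pkd1 counts cover the whole gene and overlapped between genotypes, from 328 to 451 CPM in WT and from 333 to 380 CPM in Homo, and do not check the labels. WT replicate 6 stood apart from the other 6 WT livers at several non-classical genes described below, so those results are also given without it. The same liver was also the highest WT liver for H2-K1, H2-D1 and Nlrc5. At Abca3, a lipid transporter gene beside Pkd1, this library was at 96.4 CPM, the highest of a WT range that starts at 65.5 CPM, and under the 170 to 218 CPM of the Het group.

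Of the 49 members, 34 passed the filter on low counts and were tested. Of the 15 that did not, 7 had no count in any library (H2-M1, H2-M9, H2-M10.1, H2-M10.3, H2-M10.4, H2-M10.5 and H2-M11). The other 8 were at most at 18 counts in any library. H2-Oa, H2-DMb2, H2-Eb2 and H2-T3 had counts in 18, 17, 14 and 9 of the 19 libraries, H2-M10.2, H2-M10.6 and H2-M5 in 4, 3 and 2, and H2-Ea-ps had 2 counts in WT replicate 5 and none elsewhere. Per kb of exon, H2-K1 was the most abundant member with a mean of 1123 CPM per kb over the 19 libraries. B2m followed at 870 CPM per kb, then H2-Q10, a class I protein that the liver secretes, at 102, Cd74 at 53.2 and H2-D1 at 39.8 CPM per kb. The other 29 tested members lay between 0.153 CPM per kb for H2-Ob and 13.8 CPM per kb for H2-Q1.

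**Figure D1:**
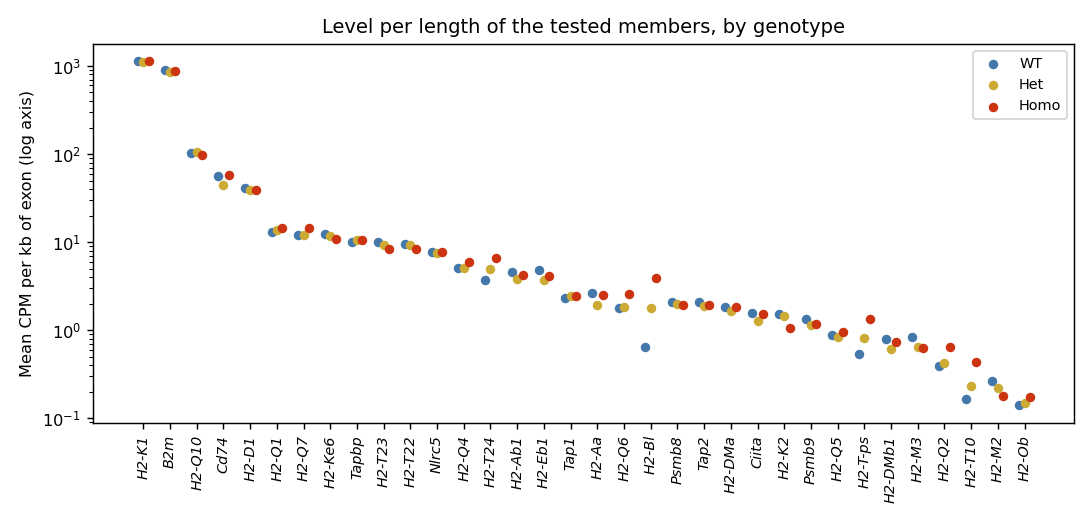
Mean CPM per kb of exon (log axis) of the 34 tested members in WT (n = 7), Het (n = 6) and Homo (n = 6) livers, 1 point per genotype. H2-K1 and B2m stand well above the rest in every genotype, and the points of the 3 genotypes lie furthest apart at H2-Bl.

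Homo against WT sets 2 mutant alleles against none. Of 16463 genes 79 were called, 0.48%, and 48 of them, 0.292%, were higher in Homo. Among the 34 tested members 1 was called, H2-T24, and it was higher in Homo. The median log2 fold change of the tested members was -0.0071, against 0.0019 over all tested genes, with 16 members above 0 and 18 below. At an unadjusted p under 0.05 there were 11 members, of which 10 were non-classical class I genes, against 2121 of all tested genes. Het against WT called 0 of the 34 members, where 4 genes, 0.0243%, were called in the table. There 5 members had an unadjusted p under 0.05, against 1455 of all tested genes, and DESeq2 and limma-voom also called 0. Homo against Het called 0 members too, against 30 genes, 0.182%, in the table. There 6 members had an unadjusted p under 0.05, against 1036 of all tested genes, and DESeq2 and limma-voom again called 0. Taken per mutant allele, 74 genes, 0.449%, were called, and again H2-T24 was the 1 member among them.

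**Figure D2:**
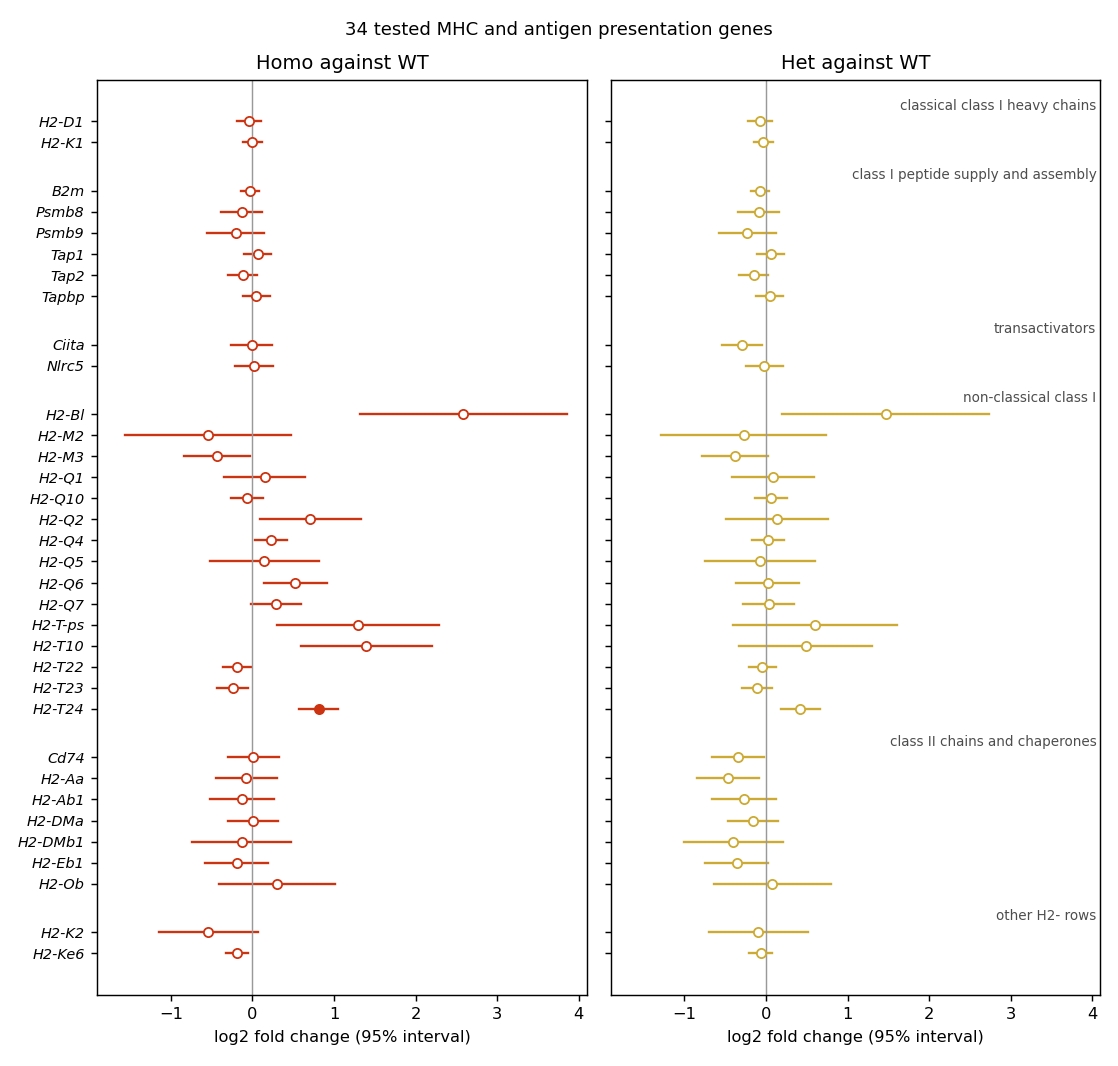
Log2 fold changes with 95% intervals of the 34 tested members for Homo against WT (left) and Het against WT (right), grouped by role, with called members as filled points. H2-T24 at 0.81 is the 1 filled point, the classical heavy chains and the genes of peptide supply lie close to 0, and both panels share the same WT livers.

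The classical heavy chains, which present peptides to CD8 T cells, kept similar levels in the 3 genotypes. H2-K1 was at 3070 to 3823 CPM in WT (median 3215), at 2909 to 3464 in Het (median 3307) and at 2903 to 3478 in Homo (median 3428), and the groups overlapped over nearly their whole range. The log2 fold change in Homo against WT was -0.0033 ± 0.057, with a 95% interval from -0.12 to 0.12 (adjusted p = 0.986). H2-D1 was at 105 ± 9.03 CPM in the 7 WT livers (mean and SD), 100.4 ± 7.84 in the 6 Het and 102 ± 9.09 in the 6 Homo livers, a log2 fold change of -0.045 ± 0.070 in Homo against WT. Reads can be shared among class I genes: 9.63% of the 50-base stretches of H2-K1 exons and 12.8% of those of H2-D1 also occur in another gene's exons, and how such reads were counted is not stated.

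The genes that cut, carry and load peptides were called in no comparison, and none had an unadjusted p under 0.05 in Homo against WT. B2m, the light chain of class I, was at 765 ± 25.0 CPM in the 7 WT livers (mean and SD), 728 ± 54.5 in the 6 Het and 749 ± 56.5 in the 6 Homo livers. Its Homo against WT log2 fold change was -0.031 ± 0.054, with an interval from -0.14 to 0.082. Tap1 and Tap2, the subunits of the peptide transporter, were at 0.065 ± 0.080 and -0.12 ± 0.084, and Tapbp, which encodes tapasin, was at 0.045 ± 0.079. Psmb8 and Psmb9, catalytic subunits of the immunoproteasome, were at -0.13 ± 0.12 and -0.21 ± 0.17 (adjusted p = 0.693 and 0.63). The summed level of the 6 genes ran from 812 to 879 CPM in WT, from 749 to 870 in Het and from 752 to 896 in Homo. B2m made up most of this sum. Psmb9 and Tap1 share 212 exon bases, and Tap2, Tapbp and Psmb8 overlap other genes as well, so without a stated strand setting reads from those stretches cannot be told apart.

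The promoters of H2-K1 and B2m are shown because these were the most abundant members and because class I and class II promoters are known to share the Y box, a site bound by the factor NF-Y. The sequences are from RefSeq on GRCm38.p6, from 250 bases before to 50 after a start site that its table lists, which for H2-K1 lies inside the gene as annotated, written on the gene's strand, at chr17:34000298-34000597 (minus strand) and chr2:122147437-122147736 (plus strand). Capitals mark the Y box core ATTGG, read on either strand, and in B2m also the interferon-stimulated response element, GAAA and again GAAA with any 2 bases between them.
H2-K1 promoter: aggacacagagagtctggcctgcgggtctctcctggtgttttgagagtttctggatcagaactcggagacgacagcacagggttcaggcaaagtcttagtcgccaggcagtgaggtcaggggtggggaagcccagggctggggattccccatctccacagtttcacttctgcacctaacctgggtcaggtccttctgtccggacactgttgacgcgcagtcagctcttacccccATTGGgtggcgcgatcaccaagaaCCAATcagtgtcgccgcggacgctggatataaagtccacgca
B2m promoter: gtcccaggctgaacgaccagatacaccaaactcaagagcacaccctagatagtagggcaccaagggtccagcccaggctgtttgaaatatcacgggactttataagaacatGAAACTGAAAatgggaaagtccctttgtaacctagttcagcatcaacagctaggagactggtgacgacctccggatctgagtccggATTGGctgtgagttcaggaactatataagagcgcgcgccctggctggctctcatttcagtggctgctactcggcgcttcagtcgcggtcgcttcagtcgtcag
Of the members, 37 had at least 1 promoter sequence, 40 sequences in all, and 35 of these 40 (87.5%) held the Y box core on either strand, against 37.4% of the 32851 promoters in the RefSeq table. An exact match to the response element pattern occurred in 3 of 40 (7.5%), those of B2m, H2-T22 and H2-T23, against 3.44% of all promoters. Looser forms of the element were not searched, so the other promoters are not shown to lack it. The motifs do not overlap each other in the sequences shown, and a match describes the letters only.

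H2-T24, a class I-like gene of the MHC's T region, rose in Homo livers and stood higher in steps with the number of mutant alleles. It lies on the minus strand of chromosome 17 at 36003471 to 36020800 (GRCm38), 11.5 Mb from the start of Pkd1. In WT it was at 7.27 to 11.7 CPM (median 7.53), in Het at 9.25 to 13.3 CPM (median 10.7) and in Homo at 12.4 to 16.0 CPM (median 14.2). All 6 Homo livers lay above all 7 WT livers, Het overlapped both, and the highest WT liver was replicate 6, while the other 6 WT livers were at most at 7.98 CPM. The fold was 1.75 in Homo against WT, a log2 fold change of 0.81 ± 0.11 (adjusted p = 0.000899, 247 to 593 counts per library). Per mutant allele the log2 fold change was 0.41 ± 0.056 (adjusted p = 0.000829). Het against WT stood at 0.42 ± 0.11 (adjusted p = 0.342) and Homo against Het at 0.39 ± 0.12 (adjusted p = 0.375).

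Without WT replicate 6, H2-T24 was at 0.92 ± 0.093 in Homo against WT (adjusted p = 1.88e-05). It was then also called in Het against WT, at 0.53 ± 0.093 (adjusted p = 0.043), though WT replicate 6 was picked by its level at this gene. The Homo against WT call held in each of the 19 fits that left out 1 library, and when mouse number was added to the fit (0.80 ± 0.13, adjusted p = 0.00968). Within mice 8 to 13, which hold 4 WT and 2 Homo livers, the log2 fold change was 0.72 ± 0.22 and not called (unadjusted p = 0.0115). In bulk liver, fewer cells of a type and less RNA per cell cannot be told apart. Cholangiocyte markers were also higher in Homo: 2 of 4 (Krt7 and Krt19) were called higher in Homo against WT, where 0.292% of all tested genes were. None of the 4 was at 0 throughout. In Het against WT 3 of the 4 were below 0, with a median log2 fold change of -0.29 and 0 called. In Homo against Het all 4 were above 0 and 3 were called, against 0.182% of all tested genes. Their summed level, led by Spp1, ran from 52.0 to 150 CPM in WT, 55.6 to 110 in Het and 114 to 152 in Homo. Spp1 alone overlapped between Homo and WT. For Krt7, Krt19 and Epcam the lowest Homo livers were at 1.03, 3.36 and 0.984 CPM. The highest WT livers were lower, at 0.583, 2.99 and 0.881 CPM. Of all tested genes, 0.911% had Homo and WT livers that did not overlap. The part of these markers in the H2-T24 result was not tested.

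The exon that encodes the membrane-proximal domain of a class I heavy chain is the 4th coding exon in these genes. It is shown because likeness in this stretch bears on whether reads from it can be assigned to 1 gene. Sequences are from GENCODE M21 transcripts on GRCm38, minus strand, 276 bases each, for H2-K1 at chr17:33997285-33997560, H2-T24 at chr17:36014800-36015075 and H2-Bl at chr17:36081242-36081517. Capitals mark the bases of H2-T24 and H2-Bl that differ from H2-K1.
H2-K1 exon: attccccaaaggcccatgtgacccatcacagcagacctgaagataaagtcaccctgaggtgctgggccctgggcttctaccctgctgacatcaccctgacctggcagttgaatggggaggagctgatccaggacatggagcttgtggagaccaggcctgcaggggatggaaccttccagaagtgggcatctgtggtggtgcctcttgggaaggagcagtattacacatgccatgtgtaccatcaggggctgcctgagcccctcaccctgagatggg
H2-T24 exon: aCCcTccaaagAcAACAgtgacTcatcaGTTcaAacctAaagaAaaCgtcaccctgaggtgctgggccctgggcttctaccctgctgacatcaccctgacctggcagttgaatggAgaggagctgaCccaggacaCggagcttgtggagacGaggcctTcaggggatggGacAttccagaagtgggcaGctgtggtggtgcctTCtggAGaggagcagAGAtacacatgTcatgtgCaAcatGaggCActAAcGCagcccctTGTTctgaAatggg
H2-Bl exon: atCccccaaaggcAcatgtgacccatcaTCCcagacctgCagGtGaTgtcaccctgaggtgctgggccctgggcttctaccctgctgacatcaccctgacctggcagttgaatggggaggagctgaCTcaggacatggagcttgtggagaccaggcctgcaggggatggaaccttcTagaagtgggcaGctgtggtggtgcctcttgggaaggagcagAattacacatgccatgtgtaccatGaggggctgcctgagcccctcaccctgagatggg
H2-T24 differs from H2-K1 at 46 of the 276 bases (83.3% identity), and the nearest of the members compared is H2-M3 at 86.2%. H2-Bl differs from H2-K1 at 15 bases (94.6%) and is nearest to H2-Q1 at 96.7%. Over all exons, 3.17% of the 50-base stretches of H2-T24 occur in another gene, against 9.4% for H2-Bl, 32.9% for H2-T10 and 34.5% for H2-T22. The counts of the last 2 are uncertain, since 31.7% of the stretches of H2-T10 occur in H2-T22 and 31.2% of those of H2-T22 occur in H2-T10.

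Near H2-T24, H2-Bl had the largest fold change of the tested members and H2-T10 the next, though neither was called. H2-Bl, annotated in RefSeq as a transcribed pseudogene at 36080110 to 36084249, was at 0.151 to 4.35 CPM in WT (median 0.528), 0.464 to 6.36 in Het (median 3.29) and 5.18 to 8.07 in Homo (median 6.31). The Homo livers lay above every WT liver, and WT replicate 6 at 4.35 CPM stood far above the other 6 WT livers, which were at most at 1.08 CPM. Its log2 fold change was 2.58 ± 0.61 in Homo against WT (adjusted p = 0.0689) and 1.47 ± 0.61 in Het against WT (adjusted p = 0.516). The Het livers spread widely, with replicates 1 and 2 at 0.631 and 0.464 CPM and the other 4 at 3.12 CPM or more. H2-T10, a pseudogene in RefSeq at 36115871 to 36121444 and related to a ligand of gamma-delta T cells, was at 0.139 to 1.29 CPM in WT (median 0.507), 0.232 to 1.20 in Het (median 0.886) and 0.981 to 2.06 in Homo (median 1.54). WT replicate 6 was again the highest WT liver, and 4 of the 6 Homo livers exceeded it. In Homo against WT the log2 fold change was 1.39 ± 0.38 (adjusted p = 0.123).

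Without WT replicate 6, both genes were called in Homo against WT, H2-Bl at 3.55 ± 0.52 (adjusted p = 0.00145) and H2-T10 at 1.72 ± 0.37 (adjusted p = 0.0299). H2-Q6, a Qa-2 gene, was called then as well, at 0.71 ± 0.15 (adjusted p = 0.0304). WT replicate 6 was picked by its high level at such genes, so these calls follow in part from leaving it out. With all libraries DESeq2 called H2-Bl (adjusted p = 0.0111) and H2-T10 (adjusted p = 0.0256), and limma-voom called H2-Bl (adjusted p = 0.0133). H2-T24 and H2-Bl were the 2 members whose Homo and WT livers did not overlap, where 150 of all tested genes (0.911%) did not overlap, and in Het against WT no member had groups apart (0.194% of all tested genes). Gm8909, which is no member, lies 11.6 Mb from the start of Pkd1 and was named after its values were seen. It was at 0 to 1.47 CPM in WT, 0.158 to 2.23 in Het and 2.72 to 5.09 in Homo, with WT replicate 6 the highest WT liver. It was called at 3.19 ± 0.67 in Homo against WT (adjusted p = 0.039), and its symbol carries no annotated role in the tables used here.

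**Figure D3:**
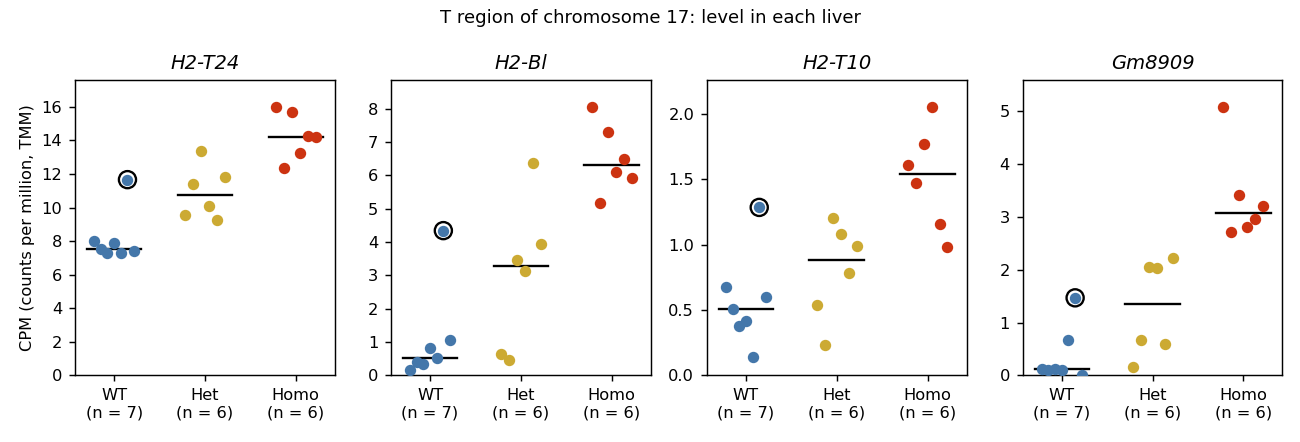
Level in CPM of H2-T24, H2-Bl, H2-T10 and the neighbouring non-member Gm8909 in each liver, with points for livers, lines for group medians and a ring around WT replicate 6. Homo livers lie above all WT livers for H2-T24, H2-Bl and Gm8909, and the ringed WT liver is the highest of its group in each panel.

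Other tested T region genes were not called, and they differed in direction. H2-T23, which encodes Qa-1, a ligand of inhibitory receptors on natural killer cells, was at 27.1 to 29.6 CPM in WT (median 29.0), 23.2 to 33.6 in Het (median 25.5) and 20.9 to 29.4 in Homo (median 23.2). Homo against WT gave a log2 fold change of -0.24 ± 0.090 (adjusted p = 0.257). H2-T22, a ligand of gamma-delta T cells, was at -0.19 ± 0.081 (adjusted p = 0.336) and H2-T-ps at 1.29 ± 0.47 (adjusted p = 0.257). With all H2-T rows summed into 1 feature, the log2 fold change was -0.015 ± 0.062 in Homo against WT (adjusted p = 0.943), since H2-T22 and H2-T23 hold most of the counts of that sum. H2-T23, H2-T22, H2-T-ps, H2-Q6, the Q and M region genes, H2-DMa and H2-DMb1 below were named after their values were seen.

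In the Q region none was called with all libraries. H2-Q10 was at 442 ± 69.3 CPM in the 7 WT livers (mean and SD), 462 ± 54.1 in the 6 Het and 423 ± 31.6 in the 6 Homo livers, a log2 fold change of -0.062 ± 0.094 in Homo against WT. H2-Q6 was at 2.92 to 6.40 CPM in WT (median 3.47), 2.79 to 4.61 in Het (median 4.12) and 3.85 to 6.42 in Homo (median 5.61). The highest WT liver was again replicate 6, and with it the log2 fold change was 0.53 ± 0.18 (adjusted p = 0.231). H2-Q7, the other Qa-2 gene, was at 0.29 ± 0.15, H2-Q4 at 0.23 ± 0.092, H2-Q2 at 0.71 ± 0.30, H2-Q1 at 0.15 ± 0.24 and H2-Q5 at 0.15 ± 0.32 (adjusted p from 0.305 to 0.893). The 4th coding exons of H2-Q6 and H2-Q7 differ at 2 of 276 bases, and 32.0% and 26.4% of their 50-base stretches occur in other genes, so their counts are uncertain. With all H2-Q rows summed the log2 fold change was -0.0021 ± 0.093 (adjusted p = 0.996), a sum led by H2-Q10. In the M region, H2-M3, which presents formylated bacterial peptides, was at 1.22 ± 0.18 CPM in the 7 WT livers (mean and SD), 0.936 ± 0.25 in the 6 Het and 0.901 ± 0.15 in the 6 Homo livers, with a log2 fold change of -0.43 ± 0.19 (adjusted p = 0.354). H2-M2 had 4 to 27 counts per library and was at -0.55 ± 0.49.

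Class II genes were called in no comparison. H2-Aa, the alpha chain of the I-A molecule, was at 6.52 to 15.2 CPM in WT (median 10.4), 4.99 to 9.55 in Het (median 7.44) and 7.08 to 12.8 in Homo (median 9.37). The 3 groups overlapped, and the highest liver was WT replicate 2. Its log2 fold change was -0.077 ± 0.18 in Homo against WT (adjusted p = 0.902) and -0.46 ± 0.18 in Het against WT (adjusted p = 0.507). H2-Ab1, its beta chain partner, was at -0.13 ± 0.19 and -0.27 ± 0.19 in the same comparisons, and H2-Eb1, the beta chain of I-E, at -0.19 ± 0.18 and -0.36 ± 0.18. Cd74, the invariant chain that guards the class II groove, was at 95.4 ± 24.2 CPM in the 7 WT livers (mean and SD), 75.2 ± 12.5 in the 6 Het and 96.2 ± 17.2 in the 6 Homo livers. Its log2 fold change was 0.012 ± 0.15 in Homo against WT and -0.34 ± 0.15 in Het against WT (adjusted p = 0.538).

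Over the 7 tested class II members the median log2 fold change was -0.077 in Homo against WT, with 0 at an unadjusted p under 0.05, and -0.34 in Het against WT, with 6 of 7 below 0 and 2 at an unadjusted p under 0.05. Homo against Het had all 7 above 0 with a median of 0.22, and both comparisons share the same Het livers. Medians over all tested genes were 0.0019, -0.0043 and -0.0012 in these 3 comparisons. H2-DMa and H2-DMb1, which form the molecule that exchanges peptides on class II, were at 0.0070 ± 0.15 and -0.13 ± 0.29 in Homo against WT. H2-Ob, a chain of the molecule that restrains it, was at 0.30 ± 0.34. The direction of H2-Aa, H2-Ab1 and H2-Eb1 in Homo against WT turned with mouse number as a covariate, to 0.24, 0.23 and 0.16, and none was called in either fit.

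Class II is carried mainly by immune cells, and the marker lists of these cells had no called gene. The summed macrophage and Kupffer cell markers (8 of 8 tested) ran from 207 to 256 CPM in WT, 179 to 222 in Het and 176 to 259 in Homo. In Het against WT 7 of these 8 markers were below 0, with a median log2 fold change of -0.19 and 1 at an unadjusted p under 0.05. In Homo against Het 6 of the 8 were above 0, with a median of 0.13 and again 1 at an unadjusted p under 0.05. Those of dendritic cells (6 of 7 tested) ran from 21.6 to 38.1, 27.7 to 35.5 and 24.2 to 38.2 CPM, and those of B cells (4 of 5 tested) from 1.73 to 4.64, 1.32 to 4.65 and 1.99 to 4.48 CPM. Those of T and NK cells (4 of 9 tested), which carry receptors for MHC molecules, ran from 2.33 to 4.99, 2.13 to 3.61 and 2.96 to 6.68 CPM. In Het against WT 5 of 6 tested dendritic cell markers and 3 of 4 tested B cell markers were above 0 (medians 0.077 and 0.088). For T and NK cells 1 of 4 was above 0 there (median -0.16). In Homo against Het 3 of 6, 2 of 4 and 3 of 4 were above 0 in the same order (medians 0.018, -0.062 and 0.70). No marker of these lists was at 0 in all libraries, and their part in the class II levels was not tested.

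**Figure D4:**
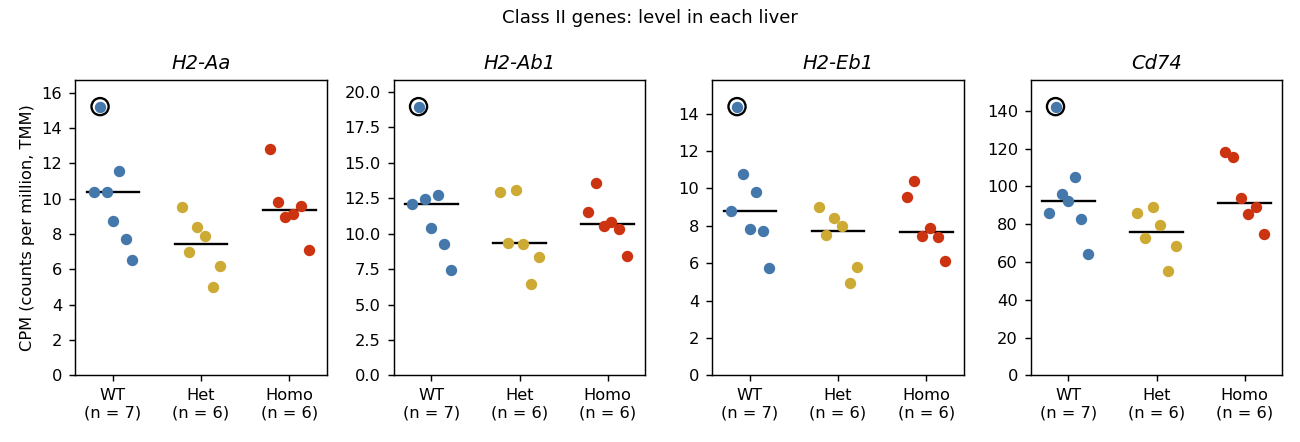
Level in CPM of H2-Aa, H2-Ab1, H2-Eb1 and Cd74 in each liver, with points for livers, lines for group medians and a ring around WT replicate 2. The 3 genotypes overlap in every panel, and the ringed WT liver is the highest of all 19 for each gene.

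Class II genes varied together from liver to liver. With genotype means removed, log2 CPM of H2-Aa followed that of H2-Ab1 over the 19 livers with Pearson's r = 0.923 and Spearman's rho = 0.891 (permutation p = 1e-05 for each, the smallest that 100000 permutations can give, adjusted p = 3e-05 over 6 relations). It followed Cd74 with r = 0.932 and rho = 0.896, with the same p-values. Without WT replicates 2 and 7, the farthest from the median of H2-Aa, r was 0.87 and 0.886, and with mouse number removed as well as genotype it was 0.823 and 0.871 over all 19. H2-Aa and Ciita, the transactivator of class II genes, gave r = 0.292 (permutation p = 0.224, adjusted 0.224) and rho = 0.191 (permutation p = 0.431, adjusted 0.431), with r = 0.0885 without those 2 livers and 0.35 with mouse number removed. H2-K1 and B2m gave r = 0.48 (permutation p = 0.0374, adjusted 0.0748) and rho = 0.475 (permutation p = 0.041, adjusted 0.082), with r = 0.423 without WT replicate 6 and Homo replicate 6 and 0.439 with mouse number removed. H2-T24 and H2-Bl gave r = 0.451 (permutation p = 0.0563, adjusted 0.0844) and rho = 0.321 (permutation p = 0.18, adjusted 0.27). For that pair r was -0.0075 without WT replicate 6 and Het replicate 3, so that it did not hold without these 2 livers, and 0.587 with mouse number removed over all 19. The 6th relation, H2-K1 with Nlrc5, gave r = 0.34 (permutation p = 0.155, adjusted 0.186) and rho = 0.288 (permutation p = 0.234, adjusted 0.281), with r = 0.305 without the same livers as for B2m and 0.282 with mouse number removed.

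The promoters of H2-Aa and H2-Eb1 are shown as examples of class II chain promoters, from RefSeq on GRCm38.p6 at chr17:34287774-34288073 (minus strand) and chr17:34305617-34305916 (plus strand), with the Y box core in capitals.
H2-Aa promoter: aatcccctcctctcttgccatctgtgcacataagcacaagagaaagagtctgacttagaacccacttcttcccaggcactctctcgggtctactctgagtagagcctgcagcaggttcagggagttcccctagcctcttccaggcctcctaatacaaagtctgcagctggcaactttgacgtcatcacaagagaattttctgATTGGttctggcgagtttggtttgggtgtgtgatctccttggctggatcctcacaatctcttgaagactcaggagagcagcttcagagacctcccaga
H2-Eb1 promoter: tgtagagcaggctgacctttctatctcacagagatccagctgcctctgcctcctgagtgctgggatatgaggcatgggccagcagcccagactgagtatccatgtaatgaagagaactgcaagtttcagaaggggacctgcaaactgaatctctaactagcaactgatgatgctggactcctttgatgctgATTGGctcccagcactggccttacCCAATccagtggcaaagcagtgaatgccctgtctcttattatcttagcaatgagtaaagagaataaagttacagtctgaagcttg
H2-Aa holds the core once and H2-Eb1 holds it on both strands.

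The transactivators were not called in any comparison. Ciita was at 14.8 ± 2.72 CPM in the 7 WT livers (mean and SD), 12.1 ± 1.15 in the 6 Het and 14.7 ± 2.28 in the 6 Homo livers. Its log2 fold change was -0.011 ± 0.12 in Homo against WT and -0.29 ± 0.12 in Het against WT (adjusted p = 0.516). Nlrc5, the transactivator of class I genes, was at 65.0 ± 7.48, 64.2 ± 13.6 and 66.0 ± 5.64 CPM in the same groups, a log2 fold change of 0.021 ± 0.11 in Homo against WT. The 2 other rows with the prefix were not called: H2-Ke6, a dehydrogenase gene in the MHC rather than an antigen presenting gene, was at -0.19 ± 0.066 (adjusted p = 0.238) and H2-K2, a pseudogene, at -0.54 ± 0.29 (adjusted p = 0.448). Of the 50-base stretches of H2-Ke6, 70.5% are shared with the overlapping Gm20427, so its count is uncertain.

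Genes that work with the members were also measured in Homo against WT. Of all 16463 tested genes, 2121 had an unadjusted p under 0.05 there and 79 (0.48%) were called. Of 8 class I accessory genes 0 were called and 1 had an unadjusted p under 0.05, the chaperone Calr at -0.39 ± 0.17 (adjusted p = 0.348). The next was Pdia3, a chaperone of the loading complex, at -0.12 ± 0.10. Of 7 class II accessory genes 0 were called and 1 had an unadjusted p under 0.05, the protease Ctsl at -0.29 ± 0.093 (adjusted p = 0.202), followed by Rfxank, a subunit of the RFX factor, at -0.22 ± 0.12. Of 9 interferon-gamma signalling genes 0 were called and 1 had an unadjusted p under 0.05, the transcription factor Irf2 at -0.37 ± 0.12 (adjusted p = 0.203). Of 5 tested class I-like genes outside the MHC 0 were called and 1 had an unadjusted p under 0.05, Azgp1 at -0.16 ± 0.071. Fcgrt, the neonatal Fc receptor, was at 0.13 ± 0.069.

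Of 16 interferon-stimulated genes 2 were called in Homo against WT, both higher in Homo, where 0.292% of all tested genes were called higher. In this list 15 of 16 were above 0, with a median log2 fold change of 0.28. An unadjusted p under 0.05 was found for 7, against 2121 of all 16463 tested genes. Het against WT had 10 above 0 and Homo against Het 16, with 0 called in each. Ifi44 was at 4.56 to 6.47 CPM in WT (median 4.83), 4.53 to 8.41 in Het (median 6.62) and 8.24 to 11.4 in Homo (median 9.70). Usp18, which restrains interferon signalling, was at 2.34 to 3.20 CPM in WT (median 2.64), 2.48 to 3.93 in Het (median 3.29) and 3.34 to 5.72 in Homo (median 4.44). For both genes the Homo livers lay above every WT liver and overlapped the Het livers. The members with an exact match to the response element pattern, B2m, H2-T22 and H2-T23, stood at -0.031, -0.19 and -0.24 in Homo against WT and were not called. H2-T24, H2-Bl and H2-T10 had no promoter sequence to search, so the pattern cannot be compared with their levels.

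The MHC shares its chromosome with Pkd1. On chromosome 17 lay 45 members, from 33919478 to 37483554, which is 9.32 to 12.9 Mb beyond the end of Pkd1, and the others were B2m on chromosome 2, Nlrc5 on 8, Ciita on 16 and Cd74 on 18. In the span of the members 4 of 125 tested genes (3.2%) were called in Homo against WT, which are H2-T24 among the 30 members tested there and 3 of the 95 other genes (3.16%). The 3 other genes were Gm8909, Gtf2h4, a TFIIH subunit gene, at -0.67 ± 0.093 (adjusted p = 0.000803), and the collagen receptor gene Ddr1 at 0.59 ± 0.12 (adjusted p = 0.0274), named after their values were seen. Over chromosome 17 as a whole 27 of 788 tested genes (3.43%) were called, against 0.48% of all tested genes. Before Pkd1 it was 14 of 148 (9.46%), and between Pkd1 and the first member 9 of 195 (4.62%). Beyond the last member edgeR called 0 of 317, where 49 had an unadjusted p under 0.05. In that window limma-voom also called 0. DESeq2, which called more genes than edgeR over all tested genes as well, called 8 there. Gtf2h4 was at 11.0 to 13.5 CPM in WT, 10.8 to 13.8 in Het and 6.51 to 9.24 in Homo, so that Homo lay apart from both other genotypes. How much of the H2-T24 difference belongs to the Pkd1 alleles and how much to the DNA inherited beside them cannot be told apart in this design.

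**Figure D5:**
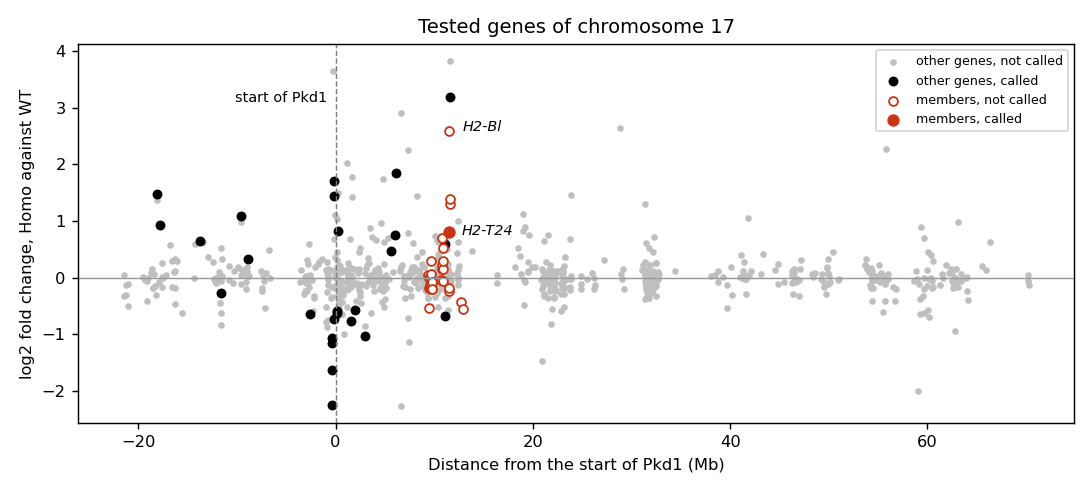
Log2 fold change in Homo against WT of the 788 tested genes of chromosome 17, by distance in Mb from the start of Pkd1, with members in red, called genes filled and other genes in grey or black. The members lie in 1 cluster between 9 and 13 Mb from Pkd1, with most members close to 0. Highest are H2-Bl, H2-T10, H2-T-ps and H2-T24, at 2.58, 1.39, 1.29 and 0.81, of which H2-T24 alone was called.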

How the data were processed

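Total RNA from liver was made into libraries with a NuGen Ovation mouse kit, per the labels' protocols. The deposited table holds whole-number, unnormalized counts by gene, a column for each mouse. Per the submitters' processing notes, tools were STAR 2.7.2b and featureCounts 1.6.4, and the build was GRCm38. The annotation, the strand setting and the handling of ambiguous reads are not stated there.

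Counts were analysed in R 4.3.3 with edgeR 4.0.16 (TMM, filterByExpr by genotype, quasi-likelihood F test, two-sided). All 19 libraries entered 1 fit, and a second fit took the number of mutant alleles as a number. DESeq2 1.42.0, limma-voom (limma 3.58.1) with quality weights and the other settings named in the closing section were alternatives. Groups come from the genotype labels, replicates were numbered in accession order, and the mouse number ends each title. Every pair of libraries of 1 genotype differed beyond sampling noise (smallest chi-square over its degrees of freedom, 23.2). Scripts were tested on simulated data.

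Positions come from RefSeq (GRCm38.p6), where 48 members matched by symbol and 1 by an older symbol. Exon lengths and shared 50-base stretches come from GENCODE M21. H2-T24, H2-Bl, H2-T10 and H2-Ab1 had no promoter sequence in the RefSeq set used, so their promoters were not searched.

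The members and gene lists were chosen with earlier results of these data known. Named with values are called members, a fixed set of core genes, up to 3 members per role group by lowest p for Homo against WT, and of each pathway list every called gene and the 2 of lowest p. A gene that this rule names in 1 pathway list is not reported here.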

Additional observations from a re-analysis of the deposited data

Results flagged for a closer look

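In each genotype, the highest and the lowest liver of every tested member were compared with the rest of the group. In 8 of 102 groups 1 liver's gap to its nearest neighbour passed Dixon's 95% critical value, and chance gives about 1 in 20 groups. WT replicate 6 stood apart as the highest WT liver at 3 non-classical genes, with H2-T24 at 11.66 CPM, H2-Bl at 4.345 CPM and H2-Q6 at 6.395 CPM. For H2-K1, H2-D1 and Nlrc5 it was also the highest WT liver, at 3823, 118.6 and 79.79 CPM. Its gap did not pass the critical value there. Het replicate 1 was the highest Het liver for H2-DMb1 at 2.018 CPM and for H2-M2 at 0.8512 CPM, both genes of few counts. Homo replicate 6 was the lowest Homo liver for H2-DMb1 at 0.9092 CPM. Het replicate 2 was the highest Het liver for H2-T23 at 33.61 CPM, and Homo replicate 5 was the lowest Homo liver for Nlrc5 at 54.84 CPM.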

How the results depend on the processing

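Homo against WT called 1 member, against 3 with DESeq2 (H2-T24, H2-Bl and H2-T10), 2 with limma-voom (H2-T24 and H2-Bl) and 0 within mice 8 to 13. It also called 0 with rows summed by symbol: all H2-T rows, all H2-Q rows, and H2-K1 with H2-K2 and H2-D1. In that fit H2-T24 is no feature of its own. Per mutant allele it was 1 member, against 3, 2 and 0 with DESeq2, limma-voom and summed rows. Leaving out 1 library gave 1 to 4 members in Homo against WT and per allele, with 4 without WT replicate 6 and 2 without Het replicate 1 or 2, and per allele also 2 without Het replicate 5. In Het against WT it gave 0 to 1, the 1 without WT replicate 6. Homo against Het called 0 members under every alternative run. The calls of all genes in Homo against WT were 79, against 305 with DESeq2 and 122 without WT replicate 6, and 2 within mice 8 to 13. The cause of these shifts was not tested, apart from the summed rows.

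Members that turned direction in Homo against WT were not called in any fit. With mouse number as a covariate H2-K1 was at 0.023, H2-D1 at 0.040, B2m at 0.0051, Ciita at 0.0029, H2-Aa at 0.24, H2-Ab1 at 0.23 and H2-Eb1 at 0.16. Without mice 1 to 3, which are all WT, Tap1 was at -0.0032, Nlrc5 at -0.060, H2-Aa at 0.14, H2-Ab1 at 0.12 and H2-Eb1 at 0.056. Within mice 8 to 13 H2-D1 was at 0.047, Nlrc5 at -0.046, H2-Aa at 0.38, H2-Ab1 at 0.32 and H2-Eb1 at 0.35. With limma-voom H2-K1 was at 5.9e-05 and Ciita at 0.0048. Leaving out 1 library gave -0.028 to 0.033 for H2-K1, -0.014 to 0.077 for Nlrc5, -0.18 to 0.044 for H2-Aa, -0.22 to 0.0095 for H2-Ab1, -0.064 to 0.13 for Cd74 and -0.085 to 0.060 for Ciita. No paired analysis was possible because the labels give no replicate numbers shared between genotypes. Depth limits the low members most: H2-T10 had 5 to 71 counts per library.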
